A study of Mus musculus with 18 samples.

Results

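Interferon-stimulated genes are the transcripts that cells make in response to interferons. They were followed here in CD4 T cells sorted from mouse lymph node, thymus and abdominal fat. The set was a list of 40 genes. A gene was matched where a probe set of the array carried its symbol and no other, and the probe set with the highest mean over the 18 arrays stood for the gene. Of the 40 genes, 38 were matched, out of 18193 genes with such a probe set, and 37 were bright enough to be tested, out of 12821. Isg15 and Ifi44 were not analysed here, and Eif2ak2, the RNA-activated kinase PKR, was too dim for a test.

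The series holds 6 groups of 3 Affymetrix M430v2 arrays. Regulatory T cells (Treg) were sorted as CD4+ CD25+ and conventional T cells (Tconv) as CD4+ CD25-, in each case negative for B220, CD11b and CD8a. Lymph node cells came from cervical, inguinal and mesenteric nodes of C57BL/6 mice of 32 to 36 weeks, pooled from 3 to 6 mice per array. For thymus, the donors were young BDC2.5/NOD animals (4 to 6 weeks), also 3 to 6 per array, and CD8a cells were depleted with magnetic beads before the sort. Fat cells came from the epididymal fat of male C57Bl/6 mice of 25 to 35 weeks, with 8 to 10 mice per array and TCRb+ added to the gate. Thymus therefore differs from the other tissues in strain, age and preparation, which cannot be told apart from tissue. Fat also differs from lymph node in the sort gate, the mice per array and the age range, and sex is given above only for fat. These cannot be told apart from tissue either. Replicates are pools, so every error below measures the spread between pools. In such bulk samples, fewer cells that express a gene and less RNA per cell cannot be told apart.

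Type I interferons signal through Ifnar1 and Ifnar2 to a complex that includes Stat2 and Irf9 and binds the interferon-stimulated response element (ISRE) of its target genes. Interferon gamma, the main product of type 1 helper T cells, signals through Ifngr1 and Ifngr2 and acts on genes with a gamma-activated site (GAS). The induced genes encode sensors of viral RNA, blockers of translation and replication, and feedback regulators such as Usp18, and some, the GTPases above all, respond strongly to interferon gamma.

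RefSeq promoter windows (GRCm38.p6, 250 bases before to 50 after the start) were found for 30 of the 40 genes. An ISRE core, GAAA, NN (any 2 bases) and GAAA on one strand or TTTC, NN and TTTC on the other, lay in the window of 15 of the 30 genes (50%), against 3.99% of 27025 genes with a window. A GAS core, TTCNNNGAA, which reads the same on both strands, lay in 7 of the 30 (23.3%), against 9.55% of all. The 160 bases before the start are shown for 7 members with calls below that carry a core there, with ISRE and GAS cores in capitals. Igtp, Trim30a, Rsad2 and Bst2, each called below in at least 1 fit, carry a core there too and are not shown. In Ifih1, Ifit2, Ifi35 and Stat2 a core lies only elsewhere in the window. Ifit1 and Ifit3 have 2 separate ISRE cores each. Gbp3, Irgm1 and Oas1a have 2 overlapping ISRE cores, Gbp2 has 1, and Oas1a also has a GAS core. In the Isg20 stretch shown, from the first of its starts, the capitals mark a GAS core. A match of letters is a description and does not show binding.
Ifit1 (chr19:34640729-34640888, plus strand): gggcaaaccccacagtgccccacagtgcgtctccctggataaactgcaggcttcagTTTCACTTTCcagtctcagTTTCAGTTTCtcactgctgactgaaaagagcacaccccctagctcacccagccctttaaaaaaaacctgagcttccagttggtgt
Ifit3 (chr19:34583369-34583528, plus strand): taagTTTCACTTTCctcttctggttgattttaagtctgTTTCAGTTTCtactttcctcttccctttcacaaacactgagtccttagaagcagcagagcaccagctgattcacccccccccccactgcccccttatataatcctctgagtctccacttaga
Gbp2 (chr3:142620503-142620662, plus strand): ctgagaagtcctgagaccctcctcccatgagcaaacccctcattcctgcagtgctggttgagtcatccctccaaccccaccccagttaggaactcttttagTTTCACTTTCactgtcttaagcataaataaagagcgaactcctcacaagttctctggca
Gbp3 (chr3:142559884-142560043, plus strand): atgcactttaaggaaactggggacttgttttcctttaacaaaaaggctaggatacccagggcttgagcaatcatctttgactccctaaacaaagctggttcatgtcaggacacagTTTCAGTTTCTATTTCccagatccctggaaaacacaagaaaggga
Irgm1 (chr11:48871421-48871580, minus strand): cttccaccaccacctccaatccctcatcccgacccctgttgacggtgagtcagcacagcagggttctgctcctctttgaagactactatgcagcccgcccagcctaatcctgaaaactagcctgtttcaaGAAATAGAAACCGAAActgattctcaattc
Oas1a (chr5:120907526-120907685, minus strand): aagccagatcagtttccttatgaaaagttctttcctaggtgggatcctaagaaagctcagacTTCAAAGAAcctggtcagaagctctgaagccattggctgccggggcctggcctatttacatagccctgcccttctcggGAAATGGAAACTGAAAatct
Isg20 (chr7:78913264-78913423, plus strand): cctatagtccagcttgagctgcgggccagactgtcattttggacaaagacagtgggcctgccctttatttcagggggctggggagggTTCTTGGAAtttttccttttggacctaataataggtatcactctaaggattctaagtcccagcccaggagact

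Each level below is the intensity of a probe set on a linear scale, as deposited (RMA) unless given as quantile-normalized. The 6 fat arrays had a higher median (76.9 to 82.2) than the other 12 (57.9 to 63.0), so fat was compared with lymph node after quantile normalization of all 18 arrays. All other comparisons used the values as deposited. A gene was called where limma's adjusted p (Benjamini-Hochberg over the 12821 genes) was under 0.05, and log2 differences are given with their standard error (SE). Levels under an intensity of 65.9, the median of all deposited values, are called dim on either scale. All 5 Treg marker genes (Foxp3, Il2ra, Ctla4, Ikzf2, Tnfrsf18) were called higher in Treg than Tconv in each tissue. The map of all 37 genes by array gives the whole set at a glance.

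**Figure D1:**
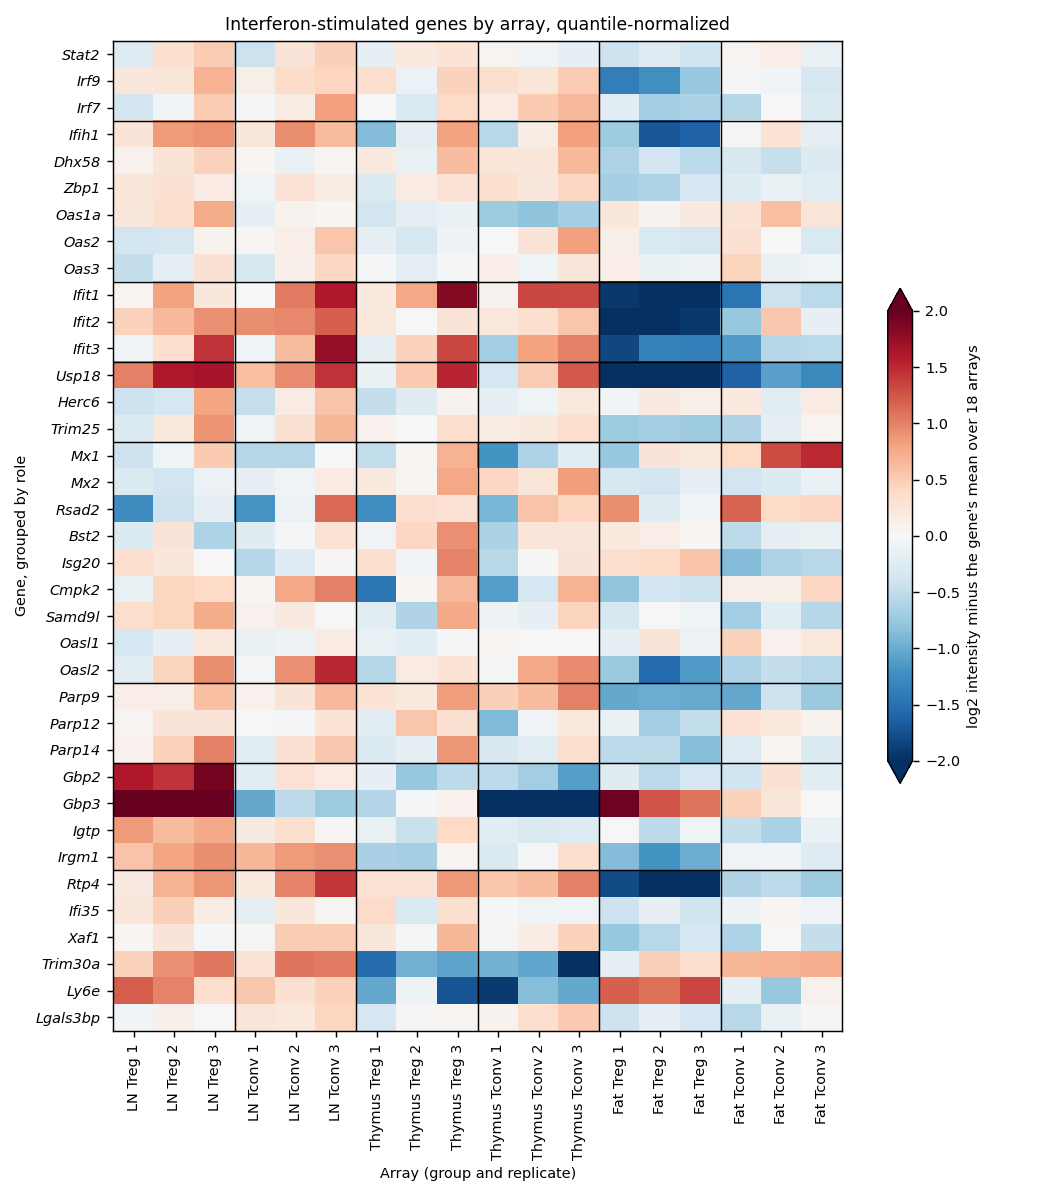
Each cell is the log2 intensity of a gene (rows, grouped by role) in an array (columns, by group and replicate) after quantile normalization, minus the gene's mean over the 18 arrays, with colours capped at 2 in either direction. Fat Treg columns are the lowest of the 6 groups on average for 22 of the 37 genes, among them the Ifit genes, Usp18 and Rtp4. Gbp3 and Ly6e stand high there. The share of all genes lowest in fat Treg was not counted.

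In lymph node, most of the set did not separate Treg from Tconv, and the exceptions were higher in Treg. The median log2 difference of the 37 genes was -0.02, as it was over all tested genes. Limma called 3 members higher and 0 lower, that is 8.11%, against 4.32% of all genes called in either direction (3.21% higher, 1.11% lower). The arrays of the groups did not overlap for 7 members that were higher in Treg and 3 that were lower, where 9.91% and 6.63% of all genes did so. At an unadjusted p under 0.05, 4 were higher and 0 lower, where 7.22% of all genes were higher and 4.04% lower. The called genes were Gbp3 and Gbp2, GTPases of the guanylate-binding family that act against intracellular pathogens, and Oas1a, which makes 2'-5' oligoadenylates on sensing double-stranded RNA.

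Gbp3 stood at 3426, 3999 and 3136 in the lymph node Treg arrays and at 443, 565 and 452 in Tconv. It was 7.24-fold higher in Treg (log2 2.86, SE 0.27; limma adjusted p = 2.87e-06), with no overlap between the groups. Gbp2 stood at 1675, 1478 and 1833 in Treg and at 495, 626 and 527 in Tconv, which is 3.03-fold higher (log2 1.60, SE 0.22; limma adjusted p = 0.000146). A second probe set of Gbp2 gave a log2 difference of 1.43. Oas1a stood at 233, 241 and 288 in Treg and at 170, 186 and 175 in Tconv. Its groups did not overlap either, but the change was small (log2 0.51, SE 0.14; limma adjusted p = 0.0495), and the call was lost in 10 of 12 alternative settings.

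In thymus the picture was similar. The median was -0.05, 2 members were called higher and 0 lower (5.41%, against 4.98% of all genes, 3.21% higher and 1.77% lower). The groups did not overlap for 2 members higher and 3 lower in Treg, where 9.02% and 10.3% of all genes did so, and at an unadjusted p under 0.05 there were 2 higher and 3 lower, where 8.25% of all genes were higher and 6.72% lower. Gbp3 stood at 572, 825 and 942 in thymic Treg and at 74.1, 131 and 159 in thymic Tconv. The 6.60-fold difference (log2 2.72, SE 0.27; limma adjusted p = 4.90e-06) rested on levels well under those of lymph node in both populations. Oas1a stood at 146, 160 and 170 in Treg and at 114, 104 and 115 in Tconv (log2 0.52, SE 0.14; limma adjusted p = 0.0426), and lost its call in 9 of 12 settings. Treg and Tconv arrays with the same number varied together, and with that number as a block 6 members were called in thymus (16.2%, against 11.9% of all genes in that fit). The 4 added were Mx1, higher in Treg, and Oas2, Oasl2 and Lgals3bp, lower in Treg. No member's Treg effect was called different between thymus and lymph node by limma (0 of 37, against 0.304% of all genes, 0.156% higher and 0.148% lower; 1 at an unadjusted p under 0.05, against 5.42% of all genes).

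In fat the set moved further, and mostly down in Treg. Its median was -0.30, against 0.01 over all tested genes, and 30 of 37 genes had a lower mean in fat Treg than in fat Tconv. Limma called 6 members lower and 3 higher (24.3%, against 11.5% of all genes, 5.19% lower and 6.32% higher). The groups did not overlap for 16 genes that were lower in Treg and 4 that were higher, where 13.0% and 12.2% of all genes did so. With the replicate block, 17 members were called, 13 of them lower, while the count over all genes went from 1476 to 2652. The plot of Treg against Tconv differences in the 3 tissues shows the fat values to the left of the other tissues for the Ifit genes, Irf9, Ifih1 and Rtp4.

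**Figure D2:**
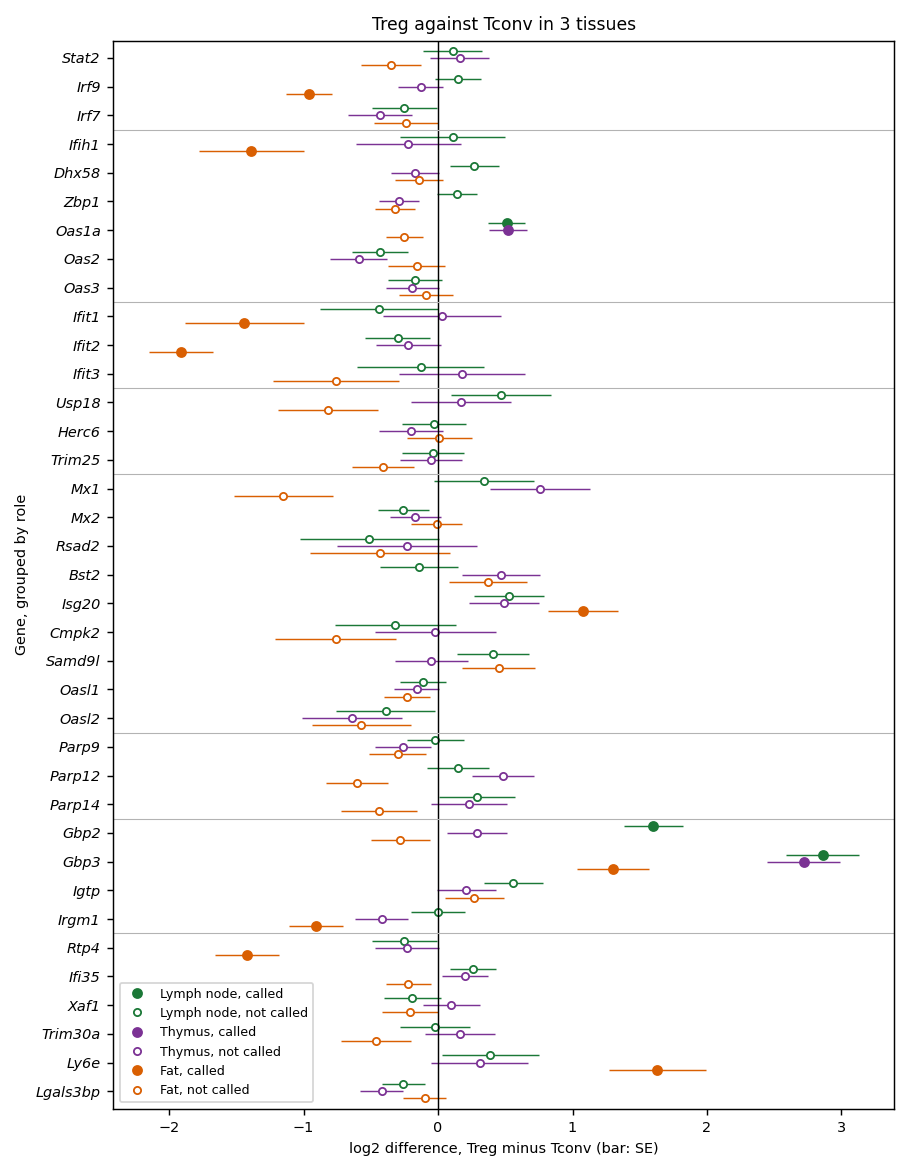
Points are limma log2 differences, Treg minus Tconv, of the 37 genes in lymph node (green), thymus (purple) and fat (orange), with bars of 1 SE; filled points passed the adjusted p threshold and open points did not. Gbp3 is to the right of 0 in all 3 tissues, and Ifit2 (-1.91), Ifit1 (-1.44), Rtp4 (-1.42) and Ifih1 (-1.39) are to the left in fat.

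Among the genes lower in fat Treg were Ifit2 and Ifit1, whose products bind viral RNA or block its translation. Ifit2 stood at 73.7, 61.4 and 76.9 in fat Treg and at 165, 432 and 260 in fat Tconv. It was 3.76-fold lower in Treg (log2 -1.91, SE 0.24; limma adjusted p = 1.89e-05), with a wide spread in Tconv and a narrow one in Treg. Ifit1 stood at 64.7, 39.4 and 47.6 in Treg and at 88.2, 172 and 159 in Tconv (log2 -1.44, SE 0.44; limma adjusted p = 0.0419). All 3 Treg arrays were below the dim limit, and the call was lost with no filter on dim probe sets, without Treg replicate 2 or 3 and without Tconv replicate 2 or 3, the highest adjusted p over all settings being 0.162.

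Rtp4, a receptor transport protein induced by type I interferon, stood at 208, 142 and 178 in fat Treg and at 415, 527 and 456 in fat Tconv. It was 2.67-fold lower in Treg (log2 -1.42, SE 0.24, limma adjusted p = 0.000529). The call was kept in all 12 alternative settings, but the log2 difference ran from -1.55 to -0.67, so its size depends on the setting. Ifih1, the RNA sensor MDA5, stood at 456, 223 and 244 in Treg and at 664, 952 and 705 in Tconv (log2 -1.39, SE 0.39; limma adjusted p = 0.0250). The same 4 arrays, left out one at a time, ended the Ifih1 call, with adjusted p values up to 0.109. Irf9, the DNA-binding subunit of the type I interferon complex, was lower by 1.95-fold, at 139, 148 and 205 in Treg against 305, 356 and 286 in Tconv. Irgm1, an immunity-related GTPase, was lower by 1.88-fold, at 334, 259 and 309 against 526, 627 and 542. Neither pair of groups overlapped.

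The 3 genes higher in fat Treg were Ly6e, Gbp3 and Isg20. Ly6e, a membrane-anchored Ly6 family protein, stood at 4159, 3689 and 4509 in Treg and at 1309, 995 and 1800 in Tconv. It was 3.09-fold higher (log2 1.63, SE 0.36; limma adjusted p = 0.00547), and a second probe set gave a log2 difference of 1.64. Gbp3 stood at 4473, 2537 and 2311 in Treg and at 1292, 1255 and 1080 in Tconv, 2.46-fold higher (log2 1.30, SE 0.27; limma adjusted p = 0.00320). Isg20, an exonuclease that degrades viral RNA, stood at 550, 564 and 667 in Treg and at 227, 307 and 315 in Tconv, 2.11-fold higher (log2 1.08, SE 0.26; limma adjusted p = 0.00940). Gbp3 was the 1 member called higher in Treg of all 3 tissues. The plot of single genes by array shows how the groups of these genes lie apart.

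**Figure D3:**
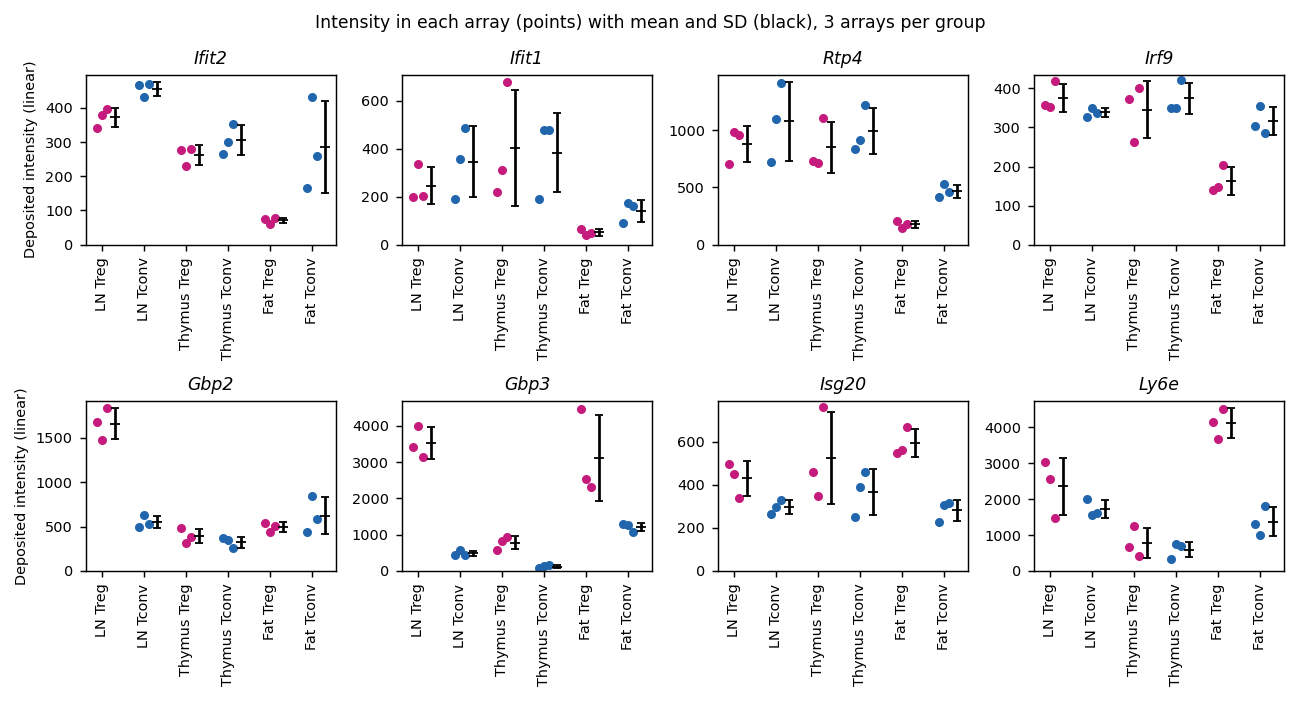
Deposited intensity (linear axis from 0) of 8 genes in every array of the 6 groups, Treg in pink and Tconv in blue, with the mean and SD of the 3 arrays in black. Ifit2, Ifit1, Rtp4 and Irf9 are lowest in fat Treg, Gbp2 stands out in lymph node Treg, and Ly6e is highest in fat Treg.

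The difference between the fat and lymph node Treg effects was tested directly. Limma called 5 members, all with a lower Treg effect in fat (13.5%, against 4.85% of all genes, 2.16% higher and 2.69% lower), and 12 with the replicate block, all lower (32.4%, against 11.0% of all genes in that fit). The median difference of the effects was -0.44, against 0.03 over all genes. Gbp2 differed most (log2 -1.88, SE 0.31; limma adjusted p = 0.000850). Its fat levels were 542, 435 and 510 in Treg and 438, 846 and 588 in Tconv, which overlap, whereas in lymph node Treg stood apart above Tconv. Ifit2 differed by -1.61 (SE 0.33; limma adjusted p = 0.00698), with lymph node levels of 341, 379 and 397 in Treg and 468, 433 and 469 in Tconv. Irf9 differed by -1.11 (SE 0.25; limma adjusted p = 0.0110), with 358, 352 and 418 against 328, 351 and 338 in lymph node. Gbp3, higher in Treg in both tissues, had a smaller Treg excess in fat (-1.56, SE 0.38; limma adjusted p = 0.0233), and lost this call in 6 of 18 settings. Oas1a differed by -0.76 (SE 0.20; limma adjusted p = 0.0348), with fat levels of 260, 228 and 254 in Treg and 248, 366 and 277 in Tconv, and lost its call in 11 of 18 settings.

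Against lymph node Treg, fat Treg had lower levels of 19 of the 37 genes and higher levels of 0 by limma's test (51.4%, against 34.3% of all genes, 18.2% lower and 16.1% higher). At an unadjusted p under 0.05, 23 were lower and 0 higher, where 23.0% of all genes were lower and 20.6% higher. The median was -0.65, against 0.01 over all genes, and for 24 members all fat arrays lay below all lymph node arrays (25.8% of all genes; 49.5% did not overlap in either direction). In Tconv, 11 members were lower in fat and 2 higher (35.1%, against 22.5% of all genes, 11.6% lower and 10.9% higher), with a median of -0.39 against -0.03. Of the called genes, 10 were lower in fat in both populations: Ifit1, Ifit2, Ifit3, Usp18, Oasl2, Parp9, Igtp, Irgm1, Rtp4 and Xaf1. These comparisons share no arrays, but same-numbered Treg and Tconv arrays varied together and a common estimate of spread served both, so they are not independent. On the deposited scale, the median of all genes rose by 0.37 in Treg and 0.33 in Tconv. In Treg 14 members were then called lower and 1 higher, where about 9% of all genes were lower and 45.5% higher. In Tconv 6 were lower and 4 higher, where about 4% of all genes were lower and 38.2% higher. Relative to all genes, the set's median on that scale was -0.67 in Treg and -0.39 in Tconv.

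**Figure D4:**
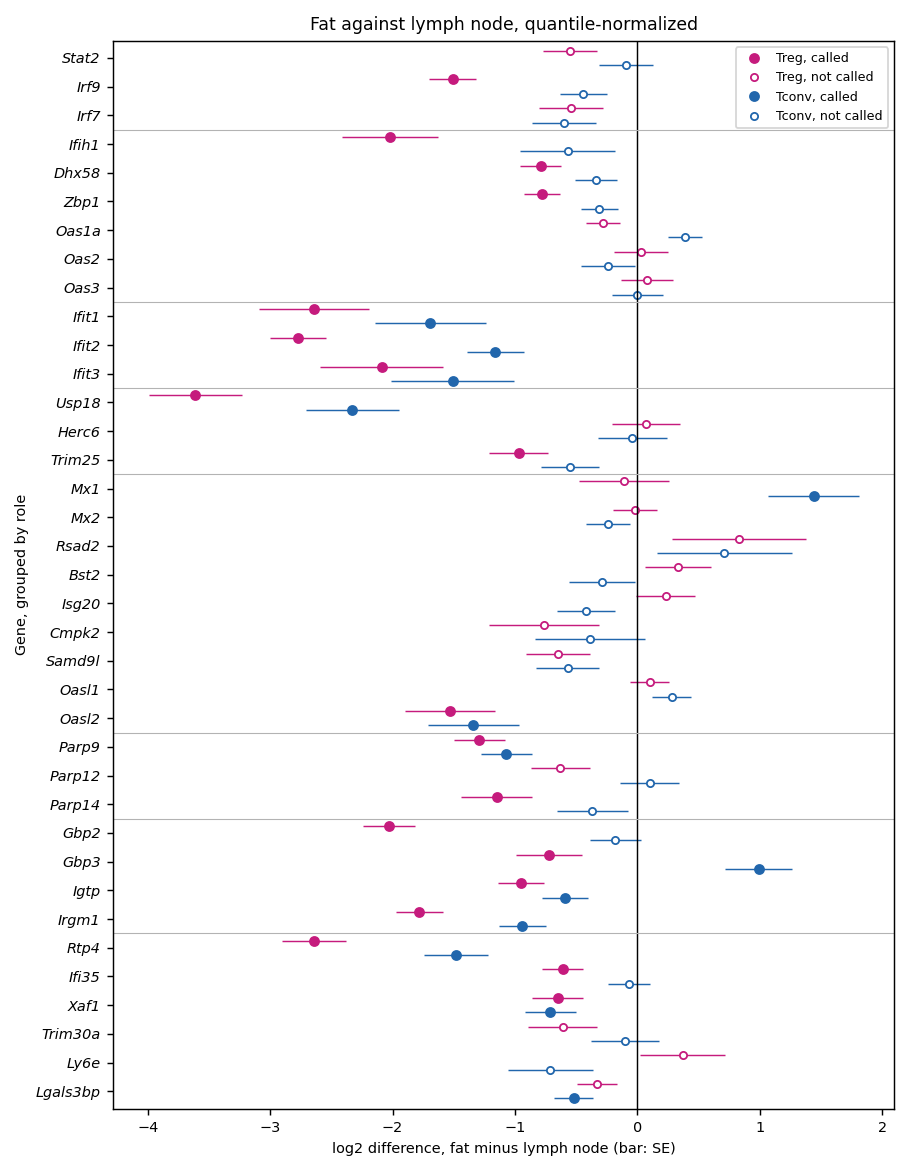
Points are limma log2 differences, fat minus lymph node, of the 37 genes in Treg (pink) and Tconv (blue) after quantile normalization, with bars of 1 SE; filled points passed the adjusted p threshold and open points did not. Usp18 lies farthest left in both populations (-3.61 and -2.33), and Mx1 and Gbp3 are the filled points to the right of 0, both in Tconv.

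Usp18, the protease that removes ISG15 from proteins and damps type I interferon signalling, changed most. Its quantile-normalized levels were 58.9, 58.7 and 56.5 in fat Treg and 533, 803 and 832 in lymph node Treg. It was 12.2-fold lower in fat (log2 -3.61, SE 0.38; limma adjusted p = 1.27e-06), and all 3 fat levels were dim on this scale, though not as deposited (67.5 to 74.2). In Tconv it stood at 86.3, 124 and 108 in fat and at 400, 509 and 724 in lymph node, 5.04-fold lower (log2 -2.33, SE 0.38; limma adjusted p = 0.000253). Of the other genes for ISG15 conjugation, Trim25, a ubiquitin ligase that activates RIG-I, was lower in fat Treg by 1.96-fold. Its other probe sets gave -0.57 and 0.32 on the log2 scale, so its direction is unsettled. Herc6 differed by 0.07 and was not called.

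The Ifit genes were lower in fat in both populations, 3 of 3 in each. Ifit2 stood at 58.5, 50.2 and 64.7 in fat Treg and at 340, 386 and 464 in lymph node Treg (quantile-normalized), 6.84-fold lower (log2 -2.77, SE 0.23; limma adjusted p = 8.63e-08). Ifit1 stood at 51.2, 32.0 and 39.8 against 201, 341 and 228, 6.21-fold lower in fat (log2 -2.64, SE 0.45; limma adjusted p = 0.000223). All fat Treg arrays were dim for both genes and far below every lymph node array. In Tconv, Ifit1 stood at 70.7, 144 and 134 in fat and at 196, 400 and 589 in lymph node (log2 -1.69, SE 0.45; limma adjusted p = 0.0112). Ifit3 in Tconv stood at 135, 198 and 202 in fat and at 278, 456 and 990 in lymph node (log2 -1.51, SE 0.50; limma adjusted p = 0.0382). The Tconv groups did not overlap for either gene, but Ifit1 lost its call without lymph node replicate 3 or fat replicate 1, and Ifit3 in 6 of 13 settings. Without fat Tconv replicate 1 the number of members called in Tconv was 7, and without lymph node Tconv replicate 3 it was 8.

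On the quantile-normalized scale, Rtp4 stood at 181, 124 and 155 in fat Treg and at 713, 1017 and 1152 in lymph node Treg, 6.22-fold lower (log2 -2.64, SE 0.26; limma adjusted p = 7.02e-07). In Tconv it stood at 411, 435 and 383 in fat and at 720, 1240 and 1677 in lymph node, 2.80-fold lower (log2 -1.48, SE 0.26; limma adjusted p = 0.000550). The fat arrays of both populations were tight and below all lymph node arrays. Over 13 alternative settings the Rtp4 differences ran from -2.84 to -1.74 in Treg and from -1.82 to -1.15 in Tconv, with both calls kept. The remaining genes follow by role, all levels quantile-normalized.

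Of the signalling factors, Irf9 was lower in fat Treg by 2.85-fold, while Stat2, its partner (-0.55), and Irf7, which amplifies type I interferon production (-0.54), were not called. Among the sensors, Ifih1 was lower in fat Treg by 4.06-fold, Dhx58, the helicase LGP2, by 1.73-fold and Zbp1, a sensor of Z-form nucleic acid, by 1.71-fold. No sensor was called in Tconv, where 6 were tested. On the deposited scale Dhx58 was no longer called. The fat Treg means of Dhx58 (64.0) and Zbp1 (59.8) were dim after quantile normalization, so these folds rest on dim values.

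Among the GTPases, 4 of 4 were lower in fat Treg. Gbp2 was lower by 4.07-fold, at 481, 398 and 446 against 1736, 1551 and 2143, Irgm1 by 3.44-fold and Igtp (Irgm3) by 1.93-fold. Gbp3 was lower by 1.65-fold in Treg (limma adjusted p = 0.0457), a call lost in 8 of 13 settings. In Tconv Gbp3 went the other way, at 1237, 1061 and 894 in fat against 442, 625 and 547 in lymph node, 1.98-fold higher (log2 0.99, SE 0.27; limma adjusted p = 0.0130). Irgm1 and Igtp were lower in fat Tconv by 1.92-fold and 1.51-fold, and Gbp2 was not called there. The Igtp call in Tconv was lost in 6 of 13 settings, on the deposited scale and with centred arrays among them.

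Among the genes that block viral replication or entry, 1 of 9 was lower in fat Treg. This was Oasl2, an oligoadenylate synthetase-like protein, lower by 2.89-fold in Treg and by 2.54-fold in Tconv, with all 6 fat arrays dim (24.0 to 51.1), so the folds rest on dim values. The Tconv call was lost on the deposited scale and without lymph node replicate 3. Mx1, a dynamin-like antiviral GTPase, was higher in fat Tconv, at 65.0, 122 and 139 against 33.4, 33.3 and 49.9 in lymph node (log2 1.44, SE 0.37; limma adjusted p = 0.00885). Its mean as deposited was dim in the other 5 groups. Rsad2 (viperin) had log2 differences of 0.83 in Treg and 0.71 in Tconv and was not called, and its arrays varied more than those of any other member (pooled SD 0.75 on the log2 scale). Of the PARP family, Parp9 was lower in both populations, by 2.45-fold in Treg and 2.09-fold in Tconv, and Parp14 in Treg, by 2.23-fold. Xaf1, a pro-apoptotic protein, was lower by 1.56-fold in Treg and 1.63-fold in Tconv, Ifi35 by 1.53-fold in Treg, and Lgals3bp by 1.43-fold in Tconv. Xaf1 and Lgals3bp lost their calls on the deposited scale, as did Ifi35.

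The numbers of the array files in the labels fall into 5 stretches, taken here as runs, although the labels do not say that they mark batches. Fat and lymph node arrays lay in the same 3 runs, 1 pair per run. The set's median fat minus lymph node difference within runs was -0.44, -0.81 and -0.93 in Treg and -0.13, -0.37 and -0.63 in Tconv. The medians of all genes within these runs lay between -0.05 and 0.04. With run as a block, 25 members were called in Treg, 1 of them higher (67.6%, against 43.0% of all genes in that fit), and 15 in Tconv (40.5%, against 30.8%).

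Markers of other cells also moved between fat and lymph node, where 34.3% of all genes were called in Treg and 22.5% in Tconv. Macrophage and monocyte markers were called higher in fat for 12 of 13 genes in Treg (median 1.82) and 7 of 13 in Tconv (median 0.90), and their summed level was 4133 to 7073 in fat Treg, 2375 to 3145 in fat Tconv, and 752 to 1103 in lymph node (quantile-normalized). Without Ccr2, which was 2762 to 3333 in fat Treg and 505 to 1464 in fat Tconv, the sums of fat Treg (1176 to 3740) and fat Tconv (910 to 2640) overlapped, and those of lymph node were 645 to 789. By deposited group means, only Itgam of 14 measured markers was dim in fat Treg, while Cd68, Itgam, Clec10a and C1qc were dim in fat Tconv. After quantile normalization, the fat Treg means of Cd68 (64.0) and C1qc (62.5) were dim too. Stromal and endothelial markers were higher for 4 of 4 genes in both populations, and summed to 2152 to 5741 in fat Treg and 2173 to 4316 in fat Tconv, against 341 to 409 in lymph node. Adipocyte markers summed to 1560 to 2815 in fat and to 173 to 206 in lymph node. Dendritic and plasmacytoid cell markers, a list that shares Bst2 with the set, were higher for 5 of 11 genes in Treg (median 0.33) and 2 of 11 in Tconv (0.15). They summed to 4460 to 4642 in fat Treg and 2151 to 2941 in fat Tconv, against 1743 to 3007 in lymph node. B cell markers were lower for 2 of 4 genes in Treg (median -0.71) and 1 of 4 in Tconv (-0.38), and summed to 457 to 571 in fat and 653 to 1064 in lymph node. Of 6 NK and cytotoxic cell markers, 1 was higher in Treg, and 1 was higher and 2 lower in Tconv. They summed to 876 to 1017 in fat Treg and 4675 to 5158 in fat Tconv, against 880 to 1169 in lymph node. Nkg7 alone was 3896 to 4576 in fat Tconv. Of 2 neutrophil markers, neither was called. CD4 T cell markers were called in 0 of 7 genes in Treg and 1 of 7 in Tconv. The part of these other cells in the interferon-stimulated levels was not tested.

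Other genes of the pathway came from lists kept apart from the set. Interferon gamma (Ifng) stood at 13990, 12955 and 14495 in fat Tconv, at 1164, 166 and 396 in fat Treg, and between 162 and 422 in the 6 lymph node arrays. After quantile normalization it was 39.9-fold higher in fat than in lymph node Tconv (log2 5.32, SE 0.48, limma adjusted p = 4.95e-07). As deposited, it was 32.5-fold lower in fat Treg than in fat Tconv (log2 -5.02, SE 0.48, limma adjusted p = 1.00e-06). In Treg, fat and lymph node differed by -0.03 (SE 0.48) after quantile normalization. Ifngr1, the ligand-binding chain of its receptor, was higher in fat by 2.93-fold in Treg and 3.97-fold in Tconv, and Ifnar2, a chain of the type I receptor, by log2 0.65 in Treg (not called with arrays centred on their median) and 1.24 in Tconv. Ifnar1 was higher in fat Treg than fat Tconv (log2 1.34, SE 0.42; limma adjusted p = 0.0487), as was Ifngr1 (log2 0.81), while Ifnar2 (-0.37) and Ifngr2 (0.50) were not called. Against lymph node, Ifnar1 differed by 0.92 in Treg and 0.29 in Tconv and was not called. Ifngr2 differed by -0.34 in Treg (0.04 on the deposited scale) and was lower in Tconv by 0.98 on the log2 scale (limma adjusted p = 0.0472), a call lost on the deposited scale and with centred arrays. Of 6 interferon receptor genes, 2 were called in fat against lymph node Treg (33.3%, near the 34.3% of all genes), both higher. In Tconv 4 were called (66.7%, against 22.5% of all genes), 3 higher and 1 lower. The third higher in Tconv was Il10rb (0.42, limma adjusted p = 0.0497), a chain of the lambda interferon receptor, whose other chain, Ifnlr1, was not called between fat groups. Of 4 tested ligands, Ifnb1 was called higher in fat than in lymph node Treg (log2 0.69 after quantile normalization), which is 25.0%, against 34.3% of all genes. Its levels on that scale were all dim, at 51.5, 61.5 and 53.0 in fat and 35.5, 31.5 and 35.9 in lymph node. The deposited fat levels of 65.0, 74.7 and 63.1 sit at the dim limit.

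Of the target genes of interferon gamma outside the set, 11 of 18 were lower in fat Treg than in lymph node Treg and 3 higher, where 18.2% of all genes were lower and 16.1% higher. Their median was -0.63, close to the -0.65 of the set. In Tconv 2 were lower and 1 higher (16.7%, against 22.5% of all genes), with a median of -0.21. In fat Treg against fat Tconv, 1 was lower and 1 higher (11.1%, against 11.5% of all genes), with a median of 0.03. Against lymph node Treg, after quantile normalization, Iigp1, another immunity-related GTPase, was lower in fat Treg by 8.52-fold. In that comparison the immunoproteasome subunits Psmb10 and Psmb9 were lower by 1.32 and 1.12 on the log2 scale. The chemokine gene Cxcl10 was 14.2-fold higher in fat Treg than in lymph node Treg after quantile normalization. Its deposited levels were 1577, 1167 and 1020 against 81.4, 65.2 and 59.7. As deposited, it was 8.67-fold higher in fat Treg than in fat Tconv, which stood at 128, 112 and 201. Irf1, a factor induced by both interferon types, was not called between any fat groups, with log2 differences of 0.06 for fat Treg against Tconv, -0.31 for fat against lymph node in Treg (0.09 on the deposited scale) and -0.05 in Tconv (0.28). The feedback inhibitor Socs1 was not called either (0.13, then -0.27 and -0.00 against lymph node, or 0.07 and 0.39 on the deposited scale), while Socs3 was lower in fat Treg than fat Tconv (-1.76) and higher in fat than lymph node Tconv (1.47). Of 8 negative regulators, 1 was higher and 3 lower in fat Treg against Tconv, and 1 was higher and 1 lower in fat against lymph node Treg; Cish was higher in both (1.52 and 1.14) and the phosphatase gene Ptpn6 lower in both (-0.89 and -1.53). Of 5 kinases and STATs, 3 were higher in fat Treg than lymph node Treg: Stat3 (1.66), Jak2 (1.42) and Stat4 (0.69). In the same comparison, of 6 other interferon regulatory factors, Irf2 (-0.87) and Irf3 (-0.60) were lower. Of 9 sensing genes upstream of interferon, Tlr7 (-1.61) and Ikbke (-1.59) were lower and Tlr3 (0.79) higher. In each of these last lists 33.3% of the genes were called, near the 34.3% of all genes.

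Fewer members were called between thymus and lymph node than between fat and lymph node. Of the genes lower in thymic Treg, Gbp2, Gbp3, Irgm1 and Igtp were also lower in fat Treg against the same lymph node arrays, while Oas1a, Trim30a and Ly6e were not called there. In Treg, 7 were lower and 1 higher (21.6%, against 11.0% of all genes, 5.86% higher and 5.17% lower), and in Tconv 6 were lower and 0 higher (16.2%, against 8.74%, 4.84% higher and 3.89% lower; 7 lower and 2 higher at an unadjusted p under 0.05, against 8.60% and 11.5% of all genes). The medians of the set were -0.10 and -0.08. The 6 genes lower in thymus in both populations were Oas1a, Gbp2, Gbp3, Irgm1, Trim30a and Ly6e. None of the Ifit genes and not Usp18 was called.

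Gbp3 stood at 572, 825 and 942 in thymic Treg against 3426, 3999 and 3136 in lymph node Treg, 4.59-fold lower (log2 -2.20, SE 0.27; limma adjusted p = 3.45e-05). In Tconv, at 74.1, 131 and 159 against 443, 565 and 452, it was 4.18-fold lower (log2 -2.06, SE 0.27; limma adjusted p = 6.55e-05). Gbp2 stood at 484, 319 and 381 in thymic Treg against 1675, 1478 and 1833, 4.26-fold lower (log2 -2.09, SE 0.22; limma adjusted p = 5.03e-06). In Tconv it stood at 370, 344 and 253 against 495, 626 and 527 (log2 -0.78, SE 0.22; limma adjusted p = 0.0320), a call lost in 6 of 12 settings. Every thymus array was below every lymph node array for both genes.

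Ly6e stood at 668, 1239 and 408 in thymic Treg and 345, 755 and 685 in thymic Tconv, against 3042, 2551 and 1482 and against 2016, 1553 and 1623 in lymph node. It was 3.24-fold lower in Treg (log2 -1.70, SE 0.36; limma adjusted p = 0.00489) and 3.05-fold lower in Tconv (log2 -1.61, SE 0.36; limma adjusted p = 0.00835). Trim30a, an inhibitor of Toll-like receptor signalling, stood at 731, 1091 and 1038 in thymic Treg and 1062, 1036 and 540 in thymic Tconv, against 2876, 3746 and 3846 and against 2640, 4160 and 3921. The log2 differences of -1.88 and -2.06 were called, but its other probe set gave -0.18 and -0.17, so the 2 probe sets disagree. Mx2 was the 1 gene higher in thymic Treg, at 94.2, 83.1 and 142 against 64.9, 60.1 and 77.2 (log2 0.63, SE 0.19; limma adjusted p = 0.0438), a call lost in 4 of 12 settings. Irgm1 was lower by 2.20-fold in Treg and 1.64-fold in Tconv, Oas1a by 1.59-fold and 1.60-fold, and Igtp by 1.65-fold in Treg. The calls of Irgm1 in Tconv and of Igtp in Treg were each lost in 6 of 12 settings, and those of Oas1a in both populations with run as a block.

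Among the genes lower in thymic Treg, 6 were of the 13 tested members with an ISRE core in the promoter window and 0 of the 14 with a window but no core; in fat against lymph node Treg these numbers were 7 and 6. The stretches printed for Gbp2, Gbp3, Irgm1 and Oas1a are those of genes lower in thymus in both populations. These counts are a description and were not tested. By run, the thymus comparison was unstable. Thymus and lymph node shared 1 run, and in that run the set's median difference was 0.48 in Treg and 0.44 in Tconv, opposite in sign to the pooled medians. With run as a block, an alternative chosen after seeing the data, the medians were 0.32 and 0.37 and the calls were 5 lower and 3 higher in Treg (21.6%, against 8.02% of all genes) and 3 lower and 4 higher in Tconv (18.9%, against 8.15%). Gbp3 and Trim30a kept their calls in both populations under every setting run.

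Within groups, Treg and Tconv arrays of the same number moved together. The pooled SD within groups had a median of 0.32 on the log2 scale over the members and 0.22 over all tested genes. By group the members' median SD was close to that of all genes in lymph node Tconv (0.21 against 0.20) and fat Treg (0.18 against 0.15), and farthest from it in thymic Treg (0.38 against 0.20) and thymic Tconv (0.33 against 0.16). In thymus, replicate 3 was the highest in both Treg and Tconv for 26 of the 37 members, where 21.0% of all genes had it highest in both. Over the other 8 numbered pairs this count ran from 1 to 16. The array pair with the lowest levels in lymph node was replicate 1, lowest in both populations for 18 members (21.0% of all genes). The plot of set medians by pair shows the Treg and Tconv points close together within lymph node and thymus.

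**Figure D5:**
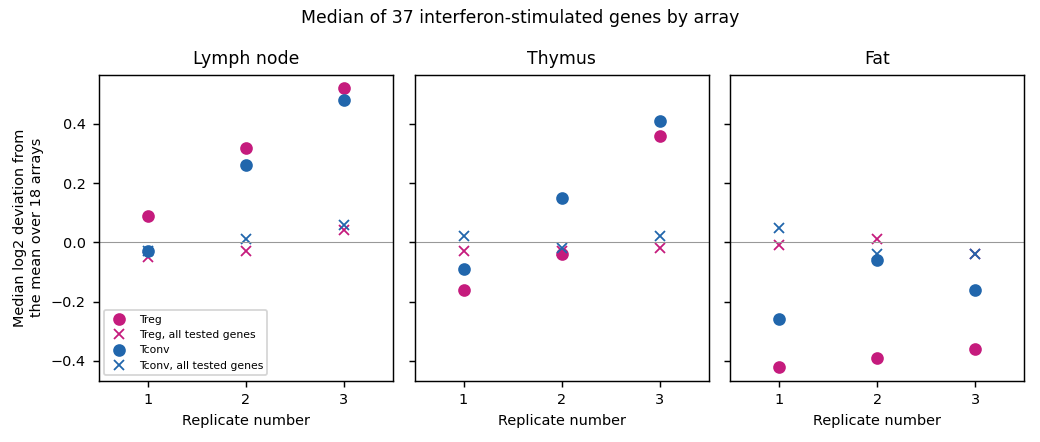
Median over the 37 genes of the log2 deviation from each gene's mean over 18 arrays (circles; Treg pink, Tconv blue) for each replicate number in lymph node, thymus and fat, after quantile normalization, with the median over all tested genes as crosses. The circles run from -0.42 to 0.52, while the crosses stay between -0.05 and 0.06.

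The genes with the widest swings between pairs were Cmpk2, a nucleotide kinase next to Rsad2 in the genome, with 94.9, 271 and 429 in thymic Treg and 123, 210 and 444 in thymic Tconv, and Usp18, with 235, 357 and 745 and with 194, 370 and 604. As means of Treg and Tconv, replicate 3 exceeded replicate 1 by 4.04-fold for Cmpk2, 3.14-fold for Usp18, 3.09-fold for Ifit3 and 2.96-fold for Ifih1. In fat, whose set medians ran from -0.42 to -0.36 in Treg and from -0.26 to -0.06 in Tconv, all 3 Treg arrays were below all 3 Tconv arrays.

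Without a block, 11 of the 37 members were called in no comparison between 2 groups. With the replicate or run block, 7 of them were called in at least 1 comparison: Stat2, Oas2, Rsad2, Bst2, Cmpk2, Samd9l and Parp12. The other 4 were Irf7, Oas3, Herc6 and Oasl1. The replicate block raised the calls over all genes too, in fat from 1476 to 2652. The shares of all genes called in no comparison, or only with a block, were not counted, so these counts have no background. After quantile normalization, the highest group mean was in lymph node Treg for 12 members, lymph node Tconv for 9 and thymic Tconv for 8. It was in thymic Treg, fat Tconv and fat Treg for 3, 3 and 2. The lowest mean on that scale was in fat Treg for 22 members, thymic Tconv for 6 and fat Tconv for 4. It was in lymph node Treg for 3 and thymic Treg for 2. The shares of all genes with these orders were not counted. As deposited the order differs for some members, such as Oas1a, whose mean was 297 in fat Tconv and 254 in lymph node Treg. The Gbp, Oas1 and Ifit genes have close paralogues, and whether their probes also read these was not tested.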

How the data were processed

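RNA of 18 sorted pools was hybridised to Affymetrix M430v2 arrays after amplification in 2 rounds. The authors used RMA, per the submitters' processing notes, and the deposited intensity of each probe set is linear, as its range shows; the version and the arrays normalized together are not given in the sources used here. RMA usually understates changes of dim genes.

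Here, log2 of the deposited intensity entered a linear model in limma 3.58.1 (R 4.3.3; lmFit, then eBayes) with a term for each of 6 groups, fitted over 18 arrays (residual df 12, prior df 4.83). Fat against lymph node used quantile-normalized values. Of 45101 probe sets, 34945 had 1 symbol, 932 several and 9160 none, besides 64 controls; symbols are those of the platform annotation. Genes with at least 1 group mean above log2 6.04 were tested and called at adjusted p under 0.05. The test was checked on simulated data. No array depth exists; 3 arrays per group limit the precision. No 2 arrays were identical (highest correlation 0.991).

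Deviations of same-numbered Treg and Tconv arrays from their group means correlated at 0.40 to 0.68 in lymph node, 0.41 to 0.56 in thymus and 0.35 to 0.54 in fat, so the number was used as a block. Same-numbered arrays of a tissue also lay in the same run, so shared mice and a shared run cannot be told apart. Runs are stretches of nearby array file numbers in the labels, which do not say that they are batches.

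Per comparison, the 4 largest called changes in each direction are given by array and other called members by fold; pathway genes are named where called, up to 3 per direction, with Ifng, Irf1, Socs1, Ifnar1, Ifnar2, Ifngr1 and Ifngr2 always given between fat groups. The members and lists were chosen with earlier results of these data known. Alternatives were the replicate block, filter, probe set, variance model, scale, run, arrays fitted and leaving out each array.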

Additional observations from a re-analysis of the deposited data

Results flagged for a closer look

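The Treg effect (Treg minus Tconv, log2) differed between fat and lymph node by limma's interaction test for 5 genes, each lower in fat: Gbp2 by -1.88 (adjusted p = 0.000850), Ifit2 by -1.61 (0.00698), Gbp3 by -1.56 (0.0233), Irf9 by -1.11 (0.0110) and Oas1a by -0.76 (0.0348). Of these, Gbp2, Ifit2 and Irf9 kept their calls in all 18 settings run.

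Between fat and thymus, 3 genes moved in opposite directions in every numbered pair, higher in Treg in all 3 thymus pairs and lower in all 3 fat pairs. The difference of the effects was -1.91 for Mx1 (means 0.76 in thymus and -1.15 in fat), -1.08 for Parp12 (0.48 and -0.60) and -0.67 for Parp14 (0.23 and -0.44). This difference was not tested, and Mx1 was dim in thymus. The 3 genes were picked from the tested members by this rule of signs. The share of all genes that meet the rule is not given, so the count has no background to be compared with. As deposited, Parp14 stood at 2200, 2347 and 4999 in thymic Treg and at 2067, 2270 and 3410 in thymic Tconv. Its thymus difference therefore came mostly from replicate 3.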

How the results depend on the processing

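No called member changed direction under any alternative run. The number of members called in thymus (2) was 6 with the replicate block and 1 with the trended robust variance, with quantile normalization, and with only the thymus arrays fitted; in fat (9) the replicate block gave 17, and for the fat minus lymph node Treg effect (5) it gave 12. The block ended no call in any comparison. Leaving out single arrays gave 2 to 2 calls in lymph node (3 with all arrays), 1 to 2 in thymus, 7 to 10 in fat, 17 to 19 for fat against lymph node Treg (19 with all arrays) and 7 to 11 for Tconv (13). It gave 6 to 10 for thymus against lymph node Treg (8), 4 to 5 for Tconv (6), 3 to 6 for the fat effect and 0 to 0 for the thymus effect; the cause was not tested. The interaction of fat fell to 3 calls without lymph node Treg replicate 2, lymph node Tconv replicate 1, fat Treg replicate 2 or 3, or fat Tconv replicate 2. On the deposited scale the set's median between fat and lymph node was -0.31 in Treg and -0.06 in Tconv, where all genes shifted by 0.37 and 0.33. Levels under an intensity of 65.9 limit the folds of Ifit1, Oasl2 and Mx1 on both scales, and of Ifit2, Usp18, Dhx58 and Zbp1 after quantile normalization.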
